A study of Homo sapiens with 6 samples.

Results

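RAB GTPases are small membrane-bound switches that act when they carry GTP and stop acting when it is hydrolysed. Exchange factors load GTP and place each RAB on its own membrane, GTPase-activating proteins end the signal, and effectors such as tethers and motor proteins carry out vesicle budding, transport and fusion. In epithelial cells, RABs of the recycling and exocytic routes carry proteins to the apical and basolateral surfaces. The RAB genes were taken by symbol, as rows named RAB followed by a number and, where present, a letter or copy number. Of 64 such rows, RAB1C was left out as a processed pseudogene, which left 63 RAB genes among 32029 listed genes.

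RNA-seq read counts of SW480 cells, a human colorectal adenocarcinoma line, were compared between 3 cultures transfected with a control siRNA (siControl, named siNC in the labels) and 3 cultures transfected with an siRNA against ZEB1 (siZEB1), collected 48 h later. The labels call the control cells WT and the others ZEB1 knockdown, and name no other agent for either group. ZEB1 is a zinc-finger repressor that binds E-box motifs in the promoters of epithelial genes. The comparison asked which RAB mRNAs changed when ZEB1 was lowered.

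Depth was 19040636 to 22357633 reads assigned to genes per culture. ZEB1 itself, read first as a check of the labels, had 1247, 1276 and 908 reads in siControl and 136, 132 and 162 in siZEB1. It fell by 2.85 on the log2 scale (SE 0.11), with an adjusted p of 4.85e-12 in edgeR's quasi-likelihood test, which gave each p printed here unless another tool is named. Of 12 epithelial colorectal markers, such as the keratins KRT8 and KRT18, 11 had a row, and their summed level was 5119 to 6359 CPM (reads scaled by edgeR to a common library size). Single markers moved: of the 10 tested, 4 rose and 3 fell at an adjusted p under 0.05, or 70%, against 40.2% of all genes tested. Their log2 fold changes ran from -1.98 to 4.01. Of 15 fibroblast, endothelial and blood markers 12 had a row, and these summed to 16.3 to 18.5 CPM, with HBB, CD3E and LUM at 4 reads or fewer in every culture. Others had more reads: 5 of the 15 were tested, with log2 fold changes from -0.50 to 0.69. Of these 5, 1 rose and 0 fell at an adjusted p under 0.05, or 20%, against 40.2% of all genes tested. In bulk cultures, a lower share of cells with an mRNA and less of it per cell cannot be told apart.

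Of the 63 RAB genes, 53 had 10 or more reads in at least 3 cultures, and 52 were tested. RAB3C met that read rule but was below edgeR's own filter. With adjusted p under 0.05, 23 of the 52 differed, or 44.2%, against 40.2% of the 14996 genes tested. Of these, 11 rose (21.2%, against 19% of all genes) and 12 fell (23.1%, against 21.2%). Both shares are near those of all genes. Without siControl culture 2, 7 RAB genes rose rather than 11, and over all genes the number that rose went from 2849 to 2305.

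Called changes above 1.5-fold were found for 9 RAB genes (17.3%, against 14.9% of all genes), which is near the share of all genes. By direction they were less even. RAB17 alone rose (1.92%, against 6.36% of all genes), and RAB7A, RAB26, RAB3A, RAB15, RAB40B, RAB7B, RAB3D and RAB2B fell (15.4%, against 8.57%). Of those that fell, RAB26, RAB3A, RAB40B, RAB7B and RAB3D were low, at means of 2.6 CPM or less in siControl. With the rule of a fold above 1.5 and an unadjusted p under 0.001, 1 RAB gene rose and 5 fell, against 4.52% and 6.7% of all genes; with p under 0.05 it was 2 and 8, against 7.21% and 9.35%. The median log2 fold change was 0.086 over the 52 RAB genes and -0.0055 over all genes, and the median size regardless of sign was 0.243 against 0.251. In CPM, the 3 siZEB1 cultures lay apart from the 3 siControl cultures for 28 RAB genes (53.8%, against 49.5% of all genes).

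**Figure D1:**
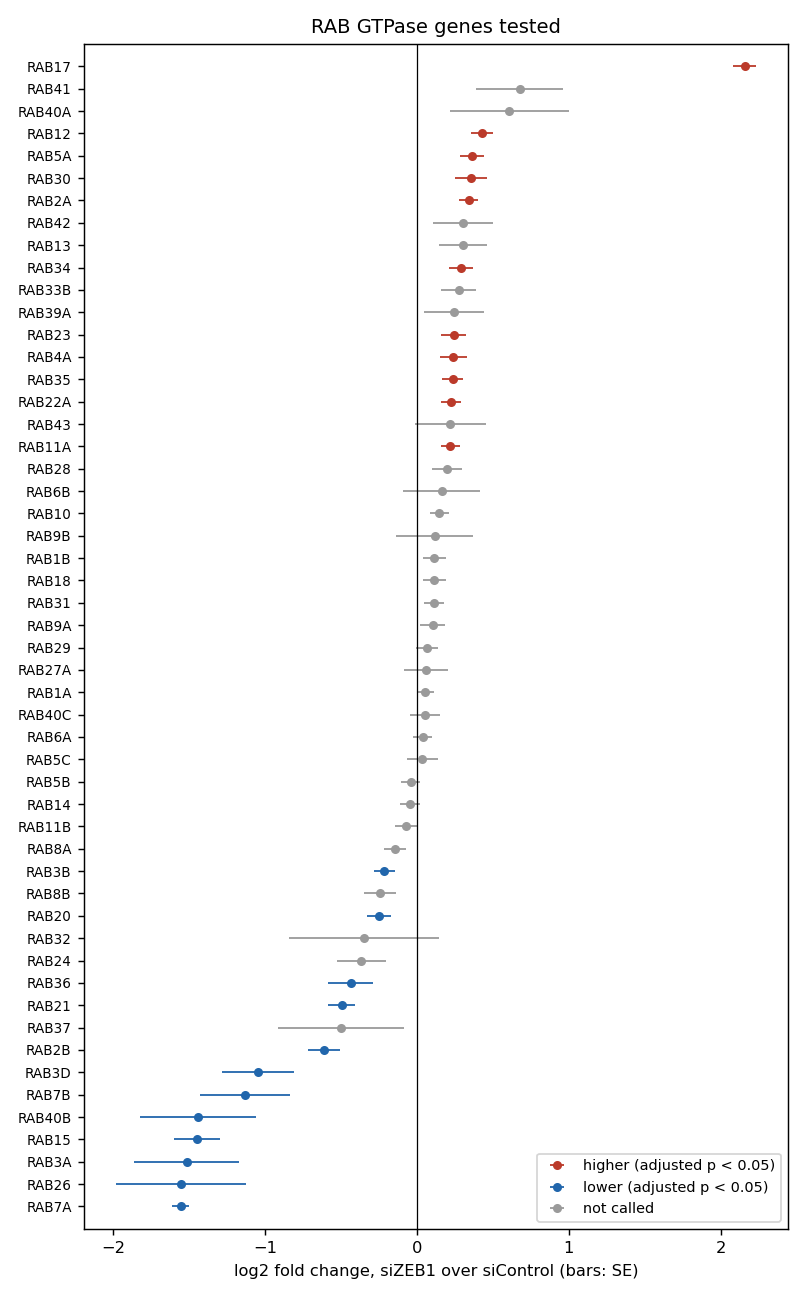
Log2 fold change of siZEB1 over siControl for the 52 RAB genes tested, ordered by value, with bars for the SE and colours for the call at adjusted p under 0.05. RAB17 stands at 2.16, apart from the rest, and 7 genes from RAB3D to RAB7A lie below -1.

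The summed level of all 63 RAB mRNAs was nearly the same in both groups, at 2675 ± 68.8 CPM in siControl and 2646 ± 10.6 CPM in siZEB1 (SD, n = 3 each). RAB7A made up 11.7% ± 0.239 of the RAB reads in siControl and 4.04% ± 0.0536 in siZEB1. Without RAB7A, the sum was 2361 ± 67.1 CPM and 2539 ± 11.2 CPM. The share of RAB17 was 0.612% ± 0.0255 and 2.76% ± 0.141. These sums were described and not tested.

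Per kb of exon, RAB7A had the highest level in siControl, at 115 ± 0.679 CPM per kb, above RAB10 at 88.0 ± 6.44 and RAB1A at 65.9 ± 2.46. RAB20 (32.2 ± 0.340) and RAB14 (31.3 ± 1.94) followed and did not differ beyond their spread. In siZEB1 the order was RAB10 at 97.6 ± 4.11, RAB1A at 68.4 ± 0.830 and RAB7A at 39.4 ± 0.426 CPM per kb, with RAB34 next at 35.0 ± 3.91. RAB7A thus moved from rank 1 to rank 3, while RAB17 went from 3.42 ± 0.121 to 15.3 ± 0.788 CPM per kb.

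**Figure D2:**
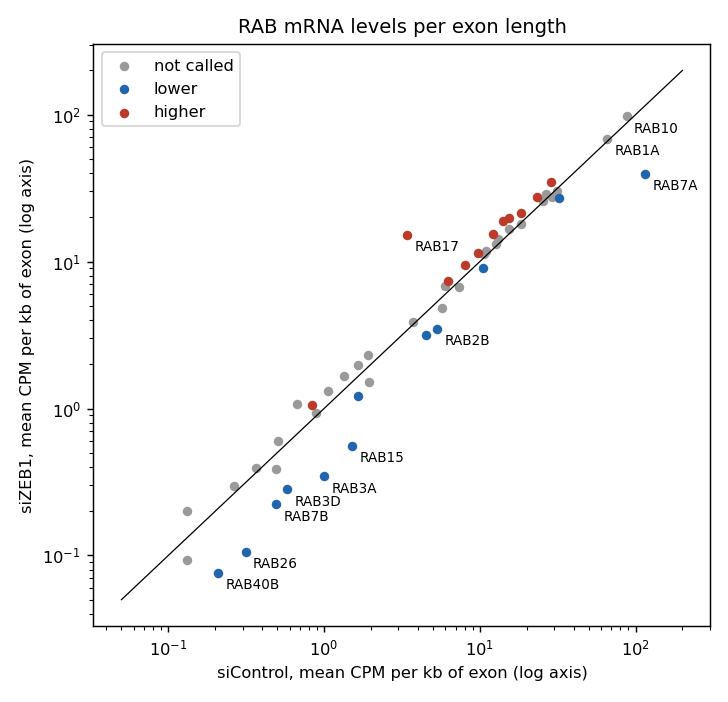
Mean level of each tested RAB mRNA in siControl (horizontal) and siZEB1 (vertical), in CPM per kb of exon on log axes, with the diagonal marking equal levels. Most points lie on the diagonal; RAB17 lies above it and RAB7A, at 115 and 39.4 CPM per kb, lies below it among the most abundant genes.

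Late endosome and lysosome RABs included the largest fall of an abundant RAB mRNA. RAB7A, which directs fusion of late endosomes and autophagosomes with lysosomes, is encoded at chr3:128726122-128814796 on the plus strand (GRCh38, GENCODE 29, ENSG00000075785). It had 6711, 7026 and 6013 reads in siControl and 1996, 2076 and 2055 in siZEB1. The groups lay far apart, and within each group the cultures were close together, at 314 ± 1.85 and 107 ± 1.16 CPM. It fell by 1.55 on the log2 scale (SE 0.056, adjusted p = 2.55e-12), and the value stayed between -1.56 and -1.54 in all 13 alternative fits. It ranked 14897 of 14996 tested genes from the highest log2 fold change down.

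RAB7B, a related RAB of late endosome to Golgi transport, had 44, 29 and 40 reads in siControl and 13, 19 and 15 in siZEB1. It fell by 1.13 on the log2 scale (SE 0.30, adjusted p = 0.00565), at far fewer reads than RAB7A. RAB12, which acts in lysosomal degradation of recycling receptors, had 758, 742 and 683 against 855, 952 and 866 reads and rose by 0.43 (SE 0.074, adjusted p = 0.000188).

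Of the 8 late endosome and lysosome RABs tested, 1 rose, 2 fell and 5 did not pass, or 37.5% called, against 40.2% of all genes. The 5 were RAB9A, RAB9B, RAB24, RAB29 and RAB32, with log2 fold changes from -0.37 to 0.12. RAB9A returns mannose-6-phosphate receptors from late endosomes to the Golgi, and its reads of 483, 512 and 460 against 454, 516 and 454 overlapped between groups. RAB24 shares 44.8% of its exonic bases with another gene on the same strand, so part of its reads cannot be assigned with certainty. The sum of this group was 421 ± 3.55 CPM in siControl and 228 ± 3.47 CPM in siZEB1, and without RAB7A it was 107 ± 1.75 and 121 ± 2.75 CPM, so RAB7A alone carried the lower sum. The median log2 fold change of the group was -0.14.

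Recycling endosome RABs held the largest rise. RAB17, an epithelial RAB of apical recycling and transcytosis, lies at chr2:237574322-237601614 on the minus strand (GRCh38, GENCODE 29, ENSG00000124839). It had 349, 379 and 304 reads in siControl and 1461, 1373 and 1348 in siZEB1. Every siZEB1 culture was above every siControl culture, at 73.1 ± 3.77 against 16.4 ± 0.578 CPM, a 4.46-fold higher level. It rose by 2.16 on the log2 scale (SE 0.077, adjusted p = 2.45e-12), rank 45 of 14996 genes.

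RAB15, a RAB of early and recycling endosomes, moved the other way. It had 172, 166 and 142 reads in siControl and 58, 57 and 45 in siZEB1, which did not overlap. It fell by 1.45 on the log2 scale (SE 0.15, adjusted p = 8.65e-07).

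RAB11A, RAB35 and RAB4A rose by small amounts. RAB11A, the main RAB of the perinuclear recycling compartment, had 2260, 2255 and 2056 reads against 2303, 2387 and 2280, and rose by 0.22 (SE 0.061, adjusted p = 0.00820). RAB35, of fast endosomal recycling, rose by 0.24 (SE 0.070, adjusted p = 0.0123). RAB4A, of rapid return from early endosomes, rose by 0.24 (SE 0.089, adjusted p = 0.0416), and shares 19.6% of its exonic bases with another gene on its strand.

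The remaining recycling RABs with enough reads did not pass. RAB11B stood at -0.07 (SE 0.075, adjusted p = 0.498). RAB14, of transport between the Golgi and endosomes, stood at -0.05 (SE 0.065, adjusted p = 0.604). RAB4B was outside the fit, with 2, 7 and 5 against 6, 4 and 7 reads. Of the 7 tested, 4 rose and 1 fell, or 71.4% called, with a median of 0.22. Of all genes, 40.2% were called, 19% higher and 21.2% lower. The share among so few recycling RABs was not tested. All recycling RABs summed to 461 ± 11.4 CPM in siControl and 545 ± 6.54 CPM in siZEB1, or 444 ± 11.97 and 472 ± 5.43 CPM without RAB17. Without siControl culture 2, RAB11A was not called (adjusted p = 0.0589), RAB35 lost its call without siControl culture 1 (0.0598) or siZEB1 culture 2 (0.0881), and RAB4A without siControl culture 1 or 2 or siZEB1 culture 1 or 2 (0.0644 to 0.209).

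RAB25, the epithelial relative of RAB11A and RAB11B, was barely detected in these cells. It lies at chr1:156061160-156070514 on the plus strand and had 1, 0 and 3 reads in siControl and 4, 1 and 7 in siZEB1. The ranges overlap, and the pooled counts of 4 and 12 gave a ratio of 3.30, with an exact 95% interval of 0.9996 to 14.0 that covers counting error only. Fitted without a filter on low counts, it stood at 1.61 on the log2 scale (SE 1.01, adjusted p = 0.343). A change in RAB25 was not detectable at this depth.

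The promoters of RAB17 and RAB25 were read because ZEB1 binds the E-box letters CACCTG, which on the other strand read CAGGTG. RAB17 was picked with its rise already known. RefSeq gave windows from 250 bases before to 50 after a start site (GRCh38.p14) for 50 of the 63 RAB genes. A gene with several start sites was counted by its window with the most matches. Of these 50 genes, 12 hold at least 1 match on either strand in that window, or 24%, against 24.1% of 27305 genes. RAB17 holds 3 matches, and 0.762% of the genes with a window hold 3 or more. RAB25 holds 2, and RAB7A holds 0. RAB2B and RAB3B, which fell, hold 1 each, as do RAB22A, RAB4A and RAB30, which rose. RAB11A, RAB35, RAB5A, RAB23 and RAB34 rose and hold 0. RAB3A, RAB3D, RAB7B, RAB40B and RAB21 fell and hold 0. Whether matches go with the direction of change was not tested. The RAB17 window, chr2:237590685-237590984, lies inside the gene, whose 5′ end in GENCODE 29 is at 237601614. Its start site is therefore an internal one, and the distances below are from that site. RAB19, with 8 reads over all cultures, also holds 3. The 5 matches of RAB17 and RAB25 are shown in capitals, in the strand of the gene, with up to 12 bases on either side.
RAB17, 78 bases before the start (chr2:237590795-237590824): tccggcagcgcgCAGGTGctcccgggtcac
RAB17, 63 bases before the start (chr2:237590780-237590809): gtgctcccgggtCACCTGctttgaggtcca
RAB17, 29 bases before the start (chr2:237590746-237590775): cctgccctgcctCAGGTGaccacatgacca
RAB25, 41 bases before the start (chr1:156061107-156061136): catctctccaccCACCTGggccccaggtct
RAB25, 37 bases after the start (chr1:156061185-156061209): ttacagcaccccCACCTGccagagc
The printed stretches of the first RAB17 pair overlap, so each flank holds part of the other match. The matches themselves share no bases. A match is a description of the letters and no evidence of binding, and no binding was measured in these files.

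Early endosome RABs split between rises and falls, with 2 of each among 7 tested (57.1% called, against 40.2% of all genes) and a median of 0.04. RAB5A, which drives fusion of early endosomes, had 1385, 1277 and 1038 reads in siControl and 1371, 1429 and 1518 in siZEB1, which did not overlap once scaled to CPM (58.7 ± 5.82 and 75.4 ± 3.48). It rose by 0.36 (SE 0.077, adjusted p = 0.00117). RAB22A, of endosomal sorting, rose by 0.23 (SE 0.066, adjusted p = 0.0113). RAB21, which carries integrins through early endosomes, had 1778, 1414 and 1328 reads against 952, 985 and 986 and fell by 0.49 (SE 0.088, adjusted p = 0.000255).

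RAB20, linked to early phagosome and endosome maturation, fell by 0.25 (SE 0.079, adjusted p = 0.0189), and by 0.16 with adjusted p = 0.109 without siZEB1 culture 3. RAB22A was not called without siControl culture 2 (adjusted p = 0.0582). RAB5B (-0.04) and RAB5C (0.04), the paralogs of RAB5A, did not pass, and nor did RAB31 (0.11). Their reads overlapped between groups. RAB5C shares 28.8% of its exonic bases with another gene on its strand. Within a culture, the log2 ratio of RAB21 to RAB5A reads was 0.29 ± 0.12 in siControl and -0.56 ± 0.053 in siZEB1 (SD, n = 3 each).

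Of 10 secretory vesicle and exocytosis RABs tested, 4 fell and 0 rose, with a median of -0.23. Over all genes, 21.2% fell and 19% rose. The share called, 40%, is near the 40.2% of all genes, and the directions of so few genes were not tested. In DESeq2 0 rose as well, and at an unadjusted edgeR p under 0.05 it was 1, RAB10. RAB3A, of regulated secretion in neurons and endocrine cells, had 37, 31 and 45 reads in siControl and 6, 13 and 17 in siZEB1 and fell by 1.51 (SE 0.35, adjusted p = 0.00202). RAB26, of secretory granule maturation, had 16, 16 and 17 against 6, 6 and 3 reads and fell by 1.55 (SE 0.43, adjusted p = 0.00762). RAB3D, of exocrine granules, had 50, 69 and 43 against 27, 23 and 21 reads and fell by 1.04 (SE 0.24, adjusted p = 0.00188). These 3 genes had few reads, and their groups did not overlap.

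RAB3B, another RAB of regulated secretion, had 3007, 3078 and 2385 reads in siControl and 2275, 2078 and 2270 in siZEB1. It fell by 0.21 (SE 0.069, adjusted p = 0.0199), and its call was lost in 3 of the 6 fits without a culture (siControl 1 or 2, siZEB1 2). RAB3C, at 10, 5 and 14 against 8, 13 and 8 reads, gave 0.13 on the log2 scale (SE 0.47, adjusted p = 0.857) with a filter of 10 reads in 3 cultures. RAB3D shares 23.8% of its exonic bases with a gene on the opposite strand, and the strand setting of the counting is not given in the sources used here.

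The exocytic RABs that act at the cell surface did not pass. RAB10, of basolateral and GLUT4 vesicle delivery, stood at 0.15 on the log2 scale (SE 0.062, adjusted p = 0.0662, and 0.0290 without siControl culture 1). RAB8A, of apical and ciliary delivery, stood at -0.14 (SE 0.072, adjusted p = 0.126). RAB8B, at -0.24 (SE 0.10, adjusted p = 0.0746), passed without a filter on low counts (adjusted p = 0.0388) and without siControl culture 3 (0.00773) or siZEB1 culture 3 (0.0147). RAB13, a tight junction RAB, was at 0.30 (SE 0.16, adjusted p = 0.143), RAB27A at 0.06 and RAB37 at -0.50 (SE 0.41, adjusted p = 0.364). On its own strand, RAB13 shares 24.8% of its exonic bases with another gene. RAB8A shares 37.8% on the opposite strand.

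**Figure D3:**
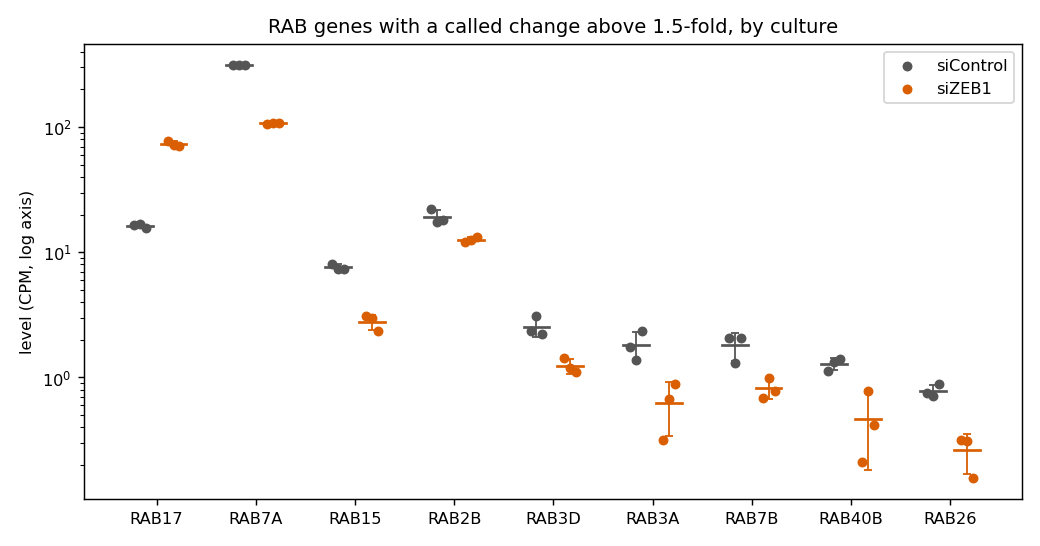
Level in CPM, on a log axis, of the 9 RAB mRNAs with a called change above 1.5-fold, as points for each of 3 siControl and 3 siZEB1 cultures, with lines at the mean and bars for the SD. The groups are apart for each gene, with RAB17 higher and the others lower in siZEB1; RAB3A and RAB40B have the wide SDs of genes with few reads.

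Among ER and Golgi RABs, RAB2A, RAB30 and RAB2B passed the test. RAB2A and RAB2B, both of transport between ER and Golgi, moved in opposite directions. RAB2A had 1539, 1481 and 1320 reads against 1617, 1694 and 1688 and rose by 0.34 (SE 0.065, adjusted p = 0.000471). RAB2B had 471, 392 and 350 against 227, 243 and 252 and fell by 0.61 (SE 0.10, adjusted p = 0.000175). Within a culture, the log2 ratio of RAB2B to RAB2A reads was -1.85 ± 0.12 in siControl and -2.79 ± 0.045 in siZEB1.

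RAB30, a Golgi RAB, rose by 0.35 (SE 0.11, adjusted p = 0.0123) on 229, 210 and 180 against 227, 240 and 253 reads, and was not called without siControl culture 2 (adjusted p = 0.0578). Of 12 tested in this group, 2 rose, 1 fell and 9 did not pass (25% called, against 40.2% of all genes), with a median of 0.19. RAB1A and RAB1B, which start ER to Golgi transport, were at 0.05 and 0.11, and RAB6A, of retrograde Golgi transport, at 0.04. RAB41 (0.68, SE 0.29, adjusted p = 0.0696) had 15, 25 and 17 against 31, 26 and 26 reads. RAB43 shares 79.3% of its exonic bases with another gene on its strand. RAB1B and RAB1A share 42.6% and 22.9% with genes on the opposite strand.

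The cilium RABs included 2 rises among 3 tested, or 66.7% called, against 40.2% of all genes (19% rose). RAB23, a negative regulator of Hedgehog signalling, rose by 0.24 (SE 0.080, adjusted p = 0.0235), and 57.7% of its exonic bases are shared with a gene on the opposite strand. RAB34, of ciliary membrane assembly, rose by 0.29 (SE 0.081, adjusted p = 0.00824), with groups that overlapped at 1948, 2034 and 1983 against 2365, 2352 and 1941 reads. RAB23 was not called without siControl culture 3 or siZEB1 culture 1 or 3 (adjusted p from 0.0522 to 0.103), and RAB34 was not called without siZEB1 culture 1 (0.0665). RAB28, found in photoreceptor cilia, was at 0.20 (SE 0.097, adjusted p = 0.114).

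Among the remaining RABs, 5 were tested, and RAB40B and RAB36 fell (40% called, against 40.2% of all genes). RAB40B, whose product recruits a ubiquitin ligase through its SOCS box, had 24, 30 and 27 reads in siControl and 4, 15 and 8 in siZEB1 and fell by 1.44 (SE 0.38, adjusted p = 0.00622). Its paralogs RAB40A (0.61, SE 0.39, adjusted p = 0.235) and RAB40C (0.05, SE 0.098, adjusted p = 0.699) did not pass. RAB36, a relative of RAB34, had 149, 155 and 122 against 83, 117 and 86 reads and fell by 0.44 (SE 0.15, adjusted p = 0.0262), a call lost in 4 of 6 fits without a culture (siControl 1 or 2, siZEB1 1 or 3). The difference between paralogs was not tested.

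The other 8 RABs outside the fit had few reads. RAB27B, of secretory granules and exosomes, had 13, 7 and 6 against 4, 4 and 3. RAB39B had 7, 6 and 8 against 15, 13 and 6, and RAB44 0, 2 and 0 against 10, 5 and 3. RAB33A, RAB19, RAB38, RAB6C and RAB6D had 13, 8, 1, 4 and 4 reads over all cultures. RAB44, fitted without a filter, had an adjusted p of 0.0155, from 2 reads against 18.

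The 7-mer GAACACA was looked for in the 3′UTRs because earlier work on these data found it in the 3′UTRs of several genes that fell, RAB7A among them; its choice is therefore not independent of these values. In 1 transcript per gene (GENCODE 29), 1372 of 12235 tested genes hold it, or 11.2%. Among tested RAB genes, 9 of 52 hold it, or 17.3%, and among all RAB genes 13 of 63 do. Sites of the 4 genes that hold it and fell by more than 1.5-fold are shown with the 7-mer in capitals and 11 bases on either side.
RAB7A (chr3:128813453-128813481, plus strand): tcacaaaccaaGAACACAcgtaggccttc
RAB7B (chr1:205978511-205978539, minus strand): ctcccgctccaGAACACAcatctccgcag
RAB15 (chr14:64947451-64947479, minus strand): ccatgcagcatGAACACAatttctctcca
RAB40B (chr17:82657172-82657200, minus strand): ctagttatgttGAACACAgccagcacagt
RAB21 holds 3 such sites and RAB3B 2.

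Of the 9 tested RAB genes with the 7-mer, 6 fell (RAB7A, RAB7B, RAB15, RAB40B, RAB21 and RAB3B), 2 rose (RAB22A and RAB30) and RAB6B did not pass. Their median log2 fold change was -0.49. Of the 43 without it, 6 fell and 9 rose, with a median of 0.11. Among all tested genes, 45.2% of those with the 7-mer fell, against 21.3% of those without it, with medians of -0.23 and 0.0074. The shares that rose were 12.6% and 21.9%. The 7-mer was noticed in genes that fell in these data, RAB7A among them, so neither split can test it. The RAB genes with it have longer 3′UTRs, with a median of 4549 against 1649 bases, and the part of length was not tested. RAB26, RAB3A, RAB3D and RAB2B fell by more than 1.5-fold without it.

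**Figure D4:**
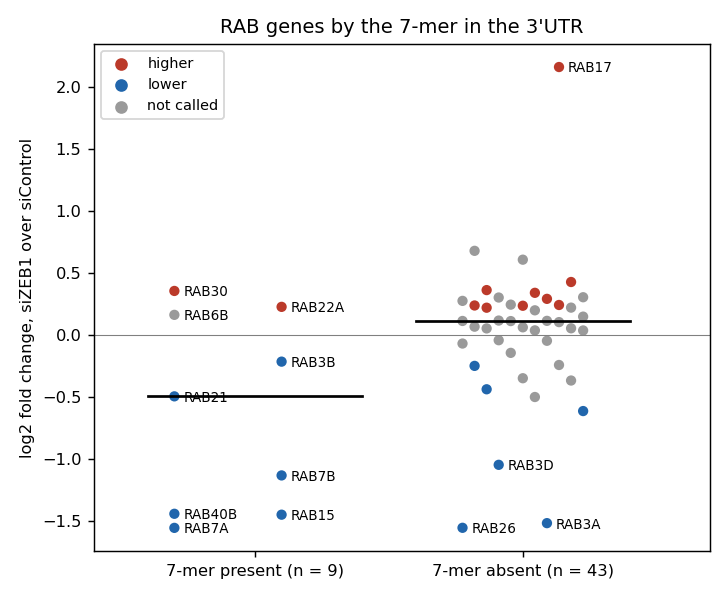
Log2 fold change of siZEB1 over siControl for the 52 tested RAB genes, split by the 7-mer in the 3′UTR of 1 transcript per gene, as points coloured by call with a line at the median. The 9 genes with it have a median of -0.49 and the 43 without it of 0.11, and RAB17, RAB26, RAB3A and RAB3D are in the second group. The 7-mer was noticed in genes that fell in these data, RAB7A among them, so the split is not a test.

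The genes that load, switch off and read the RABs were counted from lists compiled by role. Of 167 regulators and effectors tested, 40 rose and 36 fell, or 45.5% against 40.2% of all genes, with a median log2 fold change of -0.03. The lists were compiled with earlier results of these data known. Of the 10 genes that escort and lipidate RABs, 2 rose and 1 fell (30% called, median 0.0077). RABGGTB, a subunit of the geranylgeranyl transferase, rose by 0.32 (SE 0.061). CHML, an escort protein, fell by 0.26 (SE 0.10), with groups that overlapped.

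Of 43 exchange factors tested, 12 rose and 8 fell (46.5% called, against 40.2% of all genes, median -0.06). RIN2, an exchange factor for RAB5, had 830, 920 and 664 reads in siControl and 1759, 1803 and 1856 in siZEB1 and rose by 1.31 (SE 0.074). RIN1, its relative with the same target, moved the other way, from 332, 326 and 310 to 164, 143 and 130 reads, and fell by 1.01 (SE 0.11). DENND5A rose by 0.63 (SE 0.066), and TRAPPC5, with 10 to 31 reads per culture, rose by 1.35 (SE 0.32).

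The complex of MON1 and CCZ1 loads RAB7A. Its genes, singled out after their values were seen, were MON1A (-0.24, adjusted p = 0.0486), MON1B (0.22, adjusted p = 0.0282), CCZ1 (0.04, adjusted p = 0.690) and CCZ1B (0.21, adjusted p = 0.0340). CCZ1 and CCZ1B are near-identical copies whose reads the counting may divide in an uncertain way.

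Of 37 GTPase-activating proteins tested, 7 rose and 10 fell (45.9% called, against 40.2% of all genes, median -0.10). EVI5, which acts on RAB11, had 863, 793 and 613 reads in siControl and 243, 314 and 301 in siZEB1 and fell by 1.26 (SE 0.11). TBC1D8 fell by 0.91 (SE 0.088) and SGSM2 by 0.58 (SE 0.092), while TBC1D10B rose by 0.99 (SE 0.088).

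Of the 12 effectors of RAB11 and RAB25, 3 rose and 2 fell (41.7% called, against 40.2% of all genes, median -0.0017). RAB11FIP4 rose by 1.44 (SE 0.13) on 118, 103 and 121 against 266, 311 and 268 reads. MYO5B, the motor that carries RAB11 vesicles to the apical surface, rose by 0.74 (SE 0.13) on 146, 138 and 145 against 235, 188 and 230 reads. SH3TC2 fell by 0.36 (SE 0.11) and RAB11FIP5 by 0.34 (SE 0.076).

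Of the 18 effectors of RAB7A and late endosome partners, 8 rose and 2 fell, or 55.6% called. Of all genes, 40.2% were called, 19% higher and 21.2% lower. VPS26A, of the retromer, rose by 0.53 (SE 0.063) and RUBCN, which restrains endosome maturation, by 0.47 (SE 0.097). OSBPL1A, a sterol sensor that binds RAB7A, fell by 0.52 (SE 0.079), and RNF115, an E3 ligase, fell by 0.43 (SE 0.071). Their median was 0.08.

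Of 12 RAB5 effectors, 3 rose and 3 fell (50% called, against 40.2% of all genes, median 0.06). RABEP1, a RAB5 effector in endosome fusion, had 2518, 2511 and 1989 reads against 1247, 1362 and 1250 and fell by 0.72 (SE 0.070). HOOK1 rose by 0.60 (SE 0.12), VPS45 by 0.41 (SE 0.084) and RABEP2 by 0.36 (SE 0.11).

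Of 8 RAB3 and RAB27 effectors tested, 0 rose (0 also in DESeq2 and at an unadjusted edgeR p under 0.05) and 2 fell (median -0.27). The share called was 25%, against 40.2% of all genes (19% rose and 21.2% fell). SYTL2, which docks RAB27 vesicles, fell by 0.93 (SE 0.13), and UNC13D, a priming factor, by 0.36 (SE 0.070). Of 13 effectors of RAB8, RAB10, RAB13 and RAB35, 1 rose and 5 fell (46.2% called, against 40.2% of all genes, median -0.10). EHBP1L1, of apical transport, fell by 0.81 (SE 0.076). RILPL1 (-0.46), MICALL2 (-0.45) and MICAL1 (-0.40) also fell.

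Of 14 Golgi effectors, 4 rose and 3 fell (50% called, against 40.2% of all genes, median -0.01). BICD2, a dynein adaptor, rose by 1.17 (SE 0.074) and GOLGA2, a cis-Golgi tether, by 1.07 (SE 0.065). GCC1 rose by 0.53 (SE 0.072) and GORASP1 fell by 0.29 (SE 0.071).

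The related ARF, ARL and SAR family of small GTPases was counted for comparison. Of 22 genes tested, 4 rose and 6 fell, or 45.5%, against 40.2% of all genes, with a median of 0.02. ARF6, of surface recycling, had 3073, 3250 and 2748 reads in siControl and 1352, 1325 and 1321 in siZEB1 and fell by 1.04 (SE 0.061).

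**Figure D5:**
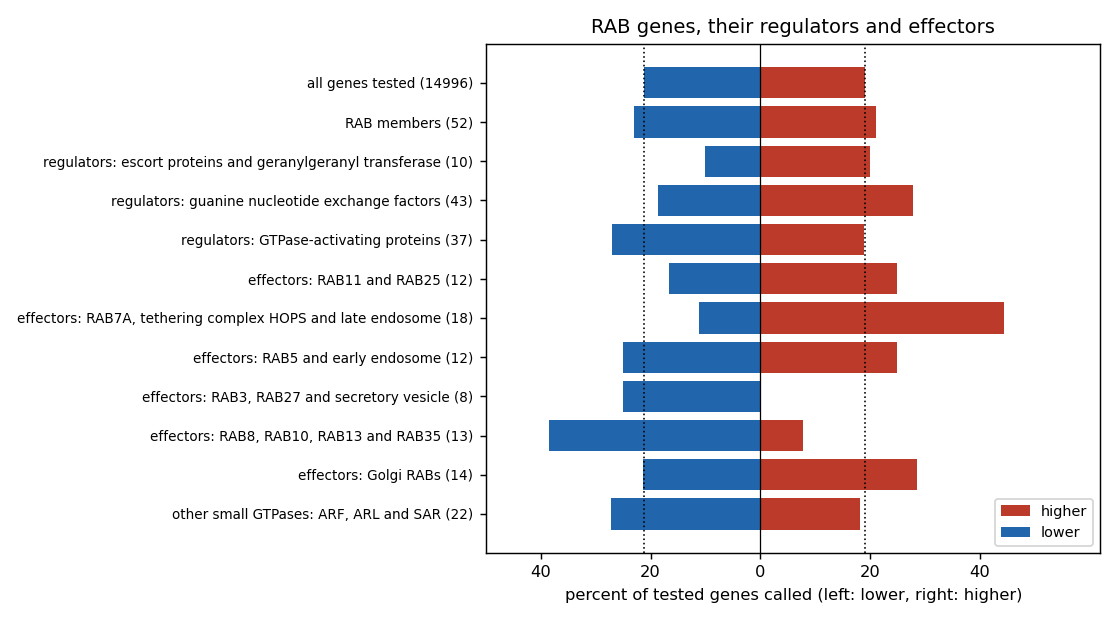
Percent of tested genes called higher (right, red) and lower (left, blue) at adjusted p under 0.05 for the 52 RAB genes, their regulators and effectors and the ARF, ARL and SAR family, with the number tested in parentheses and dotted lines at the shares of all 14996 genes. RAB genes lie near those lines, and the RAB7A effector group is the furthest to the right.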

How the data were processed

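The authors sequenced mRNA of 3 siControl and 3 siZEB1 SW480 cultures (Illumina NextSeq 500) and deposited raw read counts per gene for each culture. Per the submitters' processing notes the tools were Trimmomatic, HISAT2, SAMtools and featureCounts with hg38; their versions, the annotation and the strand setting are not given in the sources used here. Counts were kept as deposited and tested with edgeR 4.0.16 in R 4.3.3 (filterByExpr, TMM scaling, two-sided quasi-likelihood test, Benjamini-Hochberg adjustment over 14996 genes). The SE is the log2 fold change over the square root of F. Groups came from the labels, and p-values measure the spread between these cultures. A permutation of 3 against 3 cannot go below 0.10. Exon lengths, overlaps and 3′UTRs came from GENCODE 29, which holds 31059 of the listed genes, and promoters from RefSeq. The fit was also run on simulated counts in which far fewer genes changed than were called here. That run does not give the error rates in these data. DESeq2 1.42.0, other scalings and filters, a replicate block, leaving out each culture and other call rules were alternatives.

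The members and lists were chosen with earlier results of these data known. Named genes were ZEB1, RAB7A, RAB25, each called RAB and its letter paralogs, up to 4 called genes with the largest change per regulator or effector list, up to 2 for the list of ARF, ARL and SAR genes, and RABs outside the fit by their reads; some items that this rule names are not reported here. Other RABs that did not pass are given as values to complete each role.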

Additional observations from a re-analysis of the deposited data

How the results depend on the processing

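Of the 23 RAB genes called, 13 were called in every alternative that tested them. The other 10 (RAB36, RAB20, RAB3B, RAB11A, RAB22A, RAB35, RAB4A, RAB23, RAB34 and RAB30) have log2 fold changes between -0.44 and 0.35. Of 361 values of single genes, 326 kept their direction and side of the threshold, 30 lost their call and 5 changed sign, all 5 in genes not called. Over the fits without a culture, RAB11B ranged from -0.13 to 0.0083 (without siControl culture 3), RAB40C from -0.028 (without siControl culture 1) to 0.11, and RAB5C from -0.034 to 0.15, at -0.034, -0.0078 and -0.032 without siControl culture 1, siZEB1 culture 1 and siZEB1 culture 2. RAB genes higher numbered 7 to 11 and lower 10 to 13 when 1 culture was left out, with 7 without siControl culture 2. With a fold above 1.5 and an unadjusted p under 0.001, 678 genes were higher and 1004 lower, of which 1 and 5 were RAB genes. With p under 0.05 these were 1081 and 1402, with 2 RAB genes higher. With the replicate number as a block, 6 RAB genes were higher and 10 lower, 16 of the 23 called remained called, and over all genes 2289 were higher and 2679 lower, against 2849 and 3186 without the block. Deviations of cultures with the same number correlated at -0.107, -0.147 and -0.339, and those of cultures with different numbers at -0.160 to 0.259. This gives no sign that the numbers pair the cultures, but with 3 cultures per group it cannot settle it. RAB26, RAB3A, RAB40B, RAB40A, RAB32 and RAB37 were not tested where 10 reads in every culture were required. RAB genes that passed in an alternative but not as reported were RAB44 and RAB8B without a filter on low counts, RAB41 with 10 reads in every culture, RAB10 and RAB18 without siControl culture 1, RAB8B and RAB33B without siControl culture 3, and RAB8B without siZEB1 culture 3. Depth limits the RABs with few reads: RAB25, at 16 reads in all, gives an interval of its ratio from 0.9996 to 14.0.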
